A study of Mus musculus with 48 samples.

Results

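The genes described here encode the proteins that store neurotransmitter in synaptic vesicles, bring those vesicles to the plasma membrane, fuse them and take their membrane back. They are 30 named genes, matched by symbol among the 24421 gene symbols listed in each of the 6 deposited tables, and every table held all 30. The libraries are bulk RNA-seq of mouse cells labelled as astrocytes, glia that take up transmitter and contact synapses, from cortex, hippocampus and olfactory bulb. A developmental set compared postnatal days 1, 7 and 14 (P1, P7 and P14), with 3 libraries per region and age except 4 for cortex P14, and no genotype or treatment is labelled for it. A second set at P28 compared Gabbr1 control with Gabbr1 conditional knockout (cKO), with 4 and 4 libraries for cortex, 2 and 4 for hippocampus and 3 and 3 for olfactory bulb. The Gabbr1 product is part of the metabotropic GABA-B receptor, through which cells sense the inhibitory transmitter GABA. Tamoxifen, the drug that switches on inducible Cre recombinase, is labelled as the treatment of both genotypes in all P28 hippocampus and olfactory bulb libraries and in 3 of the 8 P28 cortex libraries, while the other 5 cortex libraries carry no treatment label. Tissue was dissociated by a published procedure; the Cre driver, the number of animals per library and how astrocytes were picked out are not given in the sources used here. Nothing states that libraries of a group came from separate animals, so p-values measure the spread between these libraries, which may be technical.

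At a nerve terminal, transporters fill vesicles with transmitter, scaffold proteins of the active zone hold the vesicles at the membrane, and a calcium sensor triggers the SNARE proteins to fuse vesicle and membrane within a moment of calcium entry. Dynamin and its partners then recover the membrane. Most of these genes are textbook neuronal genes. Several of the fusion proteins also serve membrane traffic in cells that are not neurons, and whether astrocytes release transmitter from vesicles has long been debated.

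The starts of genes that moved in different directions are shown first. The 250 bases before the transcription start are printed 5′ to 3′ for the synapsins, which coat vesicles, and for the vesicular glutamate transporters, because within each pair the genes did not follow the same course over development in these data. Sequences come from RefSeq on mouse build GRCm38.p6, the same build as the mm10 named in the submitters' processing notes. Capitals mark matches to 3 short motifs searched on both strands: TTCAGCACC, the left part of the RE1 element bound by the neuronal gene repressor REST, TGACGTCA, the cyclic AMP response element, and GGGCGG, the GC box.
Syn1 (chrX:20920919-20921168, minus strand): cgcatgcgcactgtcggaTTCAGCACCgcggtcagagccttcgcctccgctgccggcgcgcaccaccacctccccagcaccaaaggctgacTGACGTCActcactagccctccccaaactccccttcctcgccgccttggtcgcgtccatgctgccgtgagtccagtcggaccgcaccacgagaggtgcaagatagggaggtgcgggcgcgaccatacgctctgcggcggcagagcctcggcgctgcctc
Syn2 (chr6:115134652-115134901, plus strand): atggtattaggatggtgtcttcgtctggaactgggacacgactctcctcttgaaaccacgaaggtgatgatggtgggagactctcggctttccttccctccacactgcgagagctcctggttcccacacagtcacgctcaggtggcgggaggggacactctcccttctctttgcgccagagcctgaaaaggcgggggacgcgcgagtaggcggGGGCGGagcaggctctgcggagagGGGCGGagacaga
Slc17a6 (chr7:51621580-51621829, plus strand): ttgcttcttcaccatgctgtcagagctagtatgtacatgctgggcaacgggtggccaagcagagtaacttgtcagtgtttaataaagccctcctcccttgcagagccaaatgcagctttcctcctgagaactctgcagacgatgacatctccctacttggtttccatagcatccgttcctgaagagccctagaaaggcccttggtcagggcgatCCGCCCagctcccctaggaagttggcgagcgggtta
Slc17a7 (chr7:45163671-45163920, plus strand): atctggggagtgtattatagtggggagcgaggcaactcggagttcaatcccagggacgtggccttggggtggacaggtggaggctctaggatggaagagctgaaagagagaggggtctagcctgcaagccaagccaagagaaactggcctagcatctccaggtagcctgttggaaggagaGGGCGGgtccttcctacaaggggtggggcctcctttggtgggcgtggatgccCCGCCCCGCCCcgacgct
Of the 30 genes, 25 had an entry in the RefSeq promoter table, in which windows also include 50 bases after the start. TTCAGCACC was present in 1 of these 25 genes, Syn1, 232 bases before the start, against 0.348% of the 27025 genes in the table. TGACGTCA was present in Syn1, nearer to the start, and in Sh3gl2, against 1.77% of genes. GGGCGG was present in 16 of the 25 genes (64%), against 35.4% of genes. Syn2 has 2 GC boxes, 37 and 13 bases before the start, Slc17a7 has 3 and Slc17a6 has 1. A match describes these letters and not a bound site.

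Each developmental library held between 1773226 and 15008466 reads on genes and each P28 library between 1859933 and 6352384, and at P14 the hippocampal libraries had 2539583 to 4248087, those of olfactory bulb 1773226 to 2669394. Values are the deposited normalized reads, which were scaled separately in each table, so regions are set side by side and were not tested against each other. Library numbers run in blocks by age, and the order of preparation and age cannot be told apart. In the labels, hippocampus P14 replicates 1 and 2 carry v2 after the library number and replicate 3 does not. Whether this bears on their values was not tested. At P28 the gene removed in the cKO was lower in all cKO libraries of every region: Gabbr1 was at 926.5 to 1930.1 normalized reads in control and 89.8 to 211.1 in cKO cortex, at 779.8 and 823.8 against 151.7 to 379.9 in hippocampus, and at 183.8 to 318.0 against 63.6 to 99.5 in olfactory bulb, a difference that passed the test across all genes in cortex only (limma adjusted p = 4.4e-05, against 0.936 and 0.877). Hippocampus P28 cKO replicate 2 and olfactory bulb P28 control replicate 2 stood apart, with 0.594% and 0.476% of reads on the ribosomal precursor Rn45s where the other P28 libraries had 27.0% to 38.0%. Within that range a block of the highest library numbers had 27.0% to 31.3%, and the rest had 33.4% to 38.0%. The block holds cortex control replicates 3 and 4, cortex cKO replicate 4, hippocampus cKO replicate 4 and replicate 3 of both olfactory bulb genotypes. It holds no hippocampal control, so block and genotype cannot be told apart for hippocampus cKO replicate 4.

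From P1 to P14 more of the genes fell than rose in each region. A gene was tested when its mean over the table was at least 10 normalized reads, and it was called changed at an adjusted p under 0.05 (limma on log2(value + 1), adjusted over all genes of the table). In cortex 21 of 29 tested genes fell and 3 rose, against a background of 40.3% of all tested genes lower and 24.0% higher. In hippocampus 12 of 27 fell and 2 rose, against 28.5% lower and 21.0% higher. In olfactory bulb 16 of 29 fell and 2 rose, against 31.4% lower and 24.8% higher. For cortex, hippocampus and olfactory bulb in that order, the median log2 change of the tested members was -1.55, -0.80 and -1.43, and that over all tested genes was -0.27, -0.29 and -0.24. With TMM scaling, which moved the cortex median over all genes to 0.00, 19 of the 29 cortex genes fell, 4 rose and their median was -1.27, and the background split moved from 4765 lower and 2843 higher genes to 3655 and 3801. Quantile normalization, edgeR and DESeq2 also gave 19 that fell and 4 that rose there. With DESeq2 the median over all genes was -0.07 in hippocampus and -0.04 in olfactory bulb. The members' median was then -0.64 and -0.74 in these 2 regions, with 12 and 16 that fell and 2 that rose in each, and all genes split into 2997 lower and 2896 higher, and 3318 lower and 3435 higher. EdgeR gave a members' median of -0.75 in olfactory bulb. In these bulk libraries, fewer cells that carry a transcript and less of it per cell cannot be told apart.

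**Figure D1:**
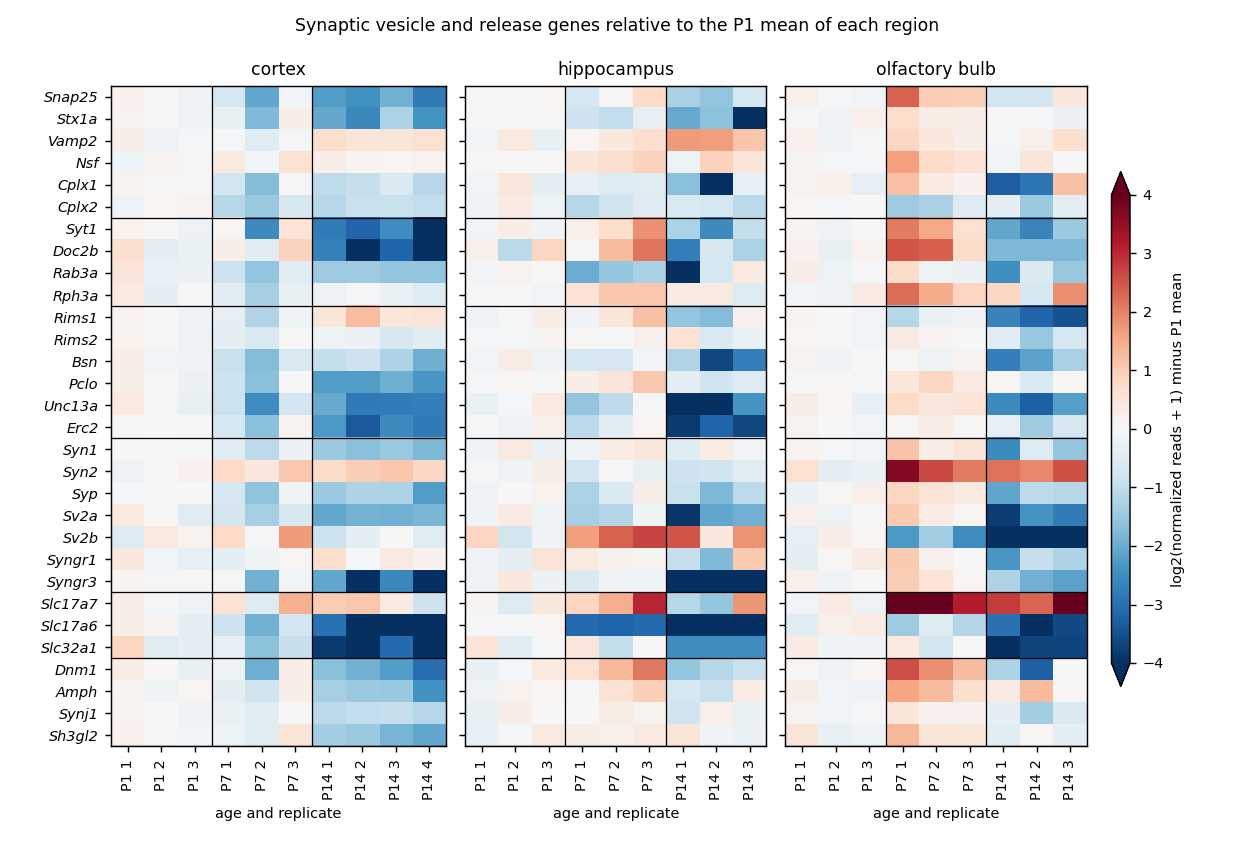
Each square is 1 gene in 1 library, coloured by log2(normalized reads + 1) minus the P1 mean of that gene and region, on a scale that ends at -4 and 4; horizontal lines separate the 6 roles and vertical lines the ages. The P14 columns are mostly blue in every region. Genes called higher at P14 than at P1 were Vamp2, Rims1 and Syn2 in cortex, Vamp2 and Sv2b in hippocampus, and Slc17a7 and Syn2 in olfactory bulb.

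A set of 8 genes fell from P1 to P14 in every region: Syt1, Bsn, Unc13a, Erc2, Syp, Sv2a, Syngr3 and Slc17a6. They were 38.1% of the members that fell in cortex, 66.7% of those in hippocampus and 50% of those in olfactory bulb. The share of all genes that fell in every region was not counted, so whether 8 is many cannot be told. Vamp2 rose in 2 regions and fell in none. Nsf and Rph3a were tested in all 3 regions and called in none with the deposited scaling and all libraries.

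The fusion machinery comprises the SNAREs Snap25, Stx1a and Vamp2, the ATPase Nsf, which takes spent SNARE complexes apart, and the complexins Cplx1 and Cplx2, which clamp and assist the assembled SNAREs. In cortex 4 of these 6 fell from P1 to P14 and Vamp2 rose, in hippocampus 2 of 5 tested fell and Vamp2 rose, and in olfactory bulb none of 6 was called with all libraries and the deposited scaling. Cortical Snap25, the SNARE on the plasma membrane side, had 851.5, 734.4 and 691.8 normalized reads at P1, 477.2, 179.4 and 693.8 at P7, then 160.03, 139.6, 200.9 and 105.4 at P14. All 4 P14 libraries lay below all P1 libraries, and P7 replicate 2 lay far below the other P7 libraries. The log2 change from P1 to P14 was -2.35 (SE 0.34, adjusted p = 4.18e-05) by limma. In hippocampus Snap25 went from 328.7, 329.7 and 352.0 at P1 to 135.4, 111.4 and 204.2 at P14, a log2 change of -1.204 (SE 0.32, adjusted p = 0.00821) by limma with no overlap of libraries. In olfactory bulb it had 459.2, 396.3 and 379.4 normalized reads at P1, 2088.7, 836.4 and 794.4 at P7, then 248.5, 239.8 and 552.6 at P14, with every P7 library above every P1 and P14 library.

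Vamp2, the SNARE on the vesicle, ran the other way. It had 446.1, 336.5 and 355.9 normalized reads at P1, 353.1, 269.8 and 363.9 at P7, then 618.6, 527.0, 526.6 and 578.9 at P14 in cortex, and rose by 0.57 (SE 0.13, adjusted p = 0.00152) by limma. Hippocampus went from 152.8, 212.5 and 133.9 at P1 to 538.5, 522.6 and 351.1 at P14, a rise of 1.496 (SE 0.24, adjusted p = 0.000302). In both regions every P14 library was above every P1 and P7 library, and the rise held for each library left out in turn and each scaling. In olfactory bulb the change was 0.26 (SE 0.22, adjusted p = 0.319). Cplx2 was the only gene of the 30 called lower at P7 than at P1 in all 3 regions. Its cortical values were 1068.8, 1301.4 and 1346.3 at P1, 563.7, 439.9 and 765.9 at P7, then 559.2, 667.9, 661.6 and 622.5 at P14. All P7 and P14 libraries were below P1 and overlapped each other, and the log2 change from P1 to P7 was -1.10 (SE 0.16, adjusted p = 0.000195) by limma. In hippocampus too all P7 and P14 libraries were below P1, and the log2 change to P7 was -0.82 (adjusted p = 0.0142), a call lost without P1 replicate 2 (limma adjusted p = 0.0666) or P7 replicate 1 (0.0693). The olfactory bulb call was lost without any 1 of the P1 libraries, P7 replicate 1 or P7 replicate 2 (adjusted p from 0.123 to 0.192 by limma). Cplx2 missed the threshold in olfactory bulb from P1 to P14 (limma adjusted p = 0.0592). It was called lower there with a minimum mean of 100 (-0.75, adjusted p = 0.0458), with quantile normalization (-0.82, adjusted p = 0.0379) and without P14 replicate 1 (-0.95, adjusted p = 0.0345), P14 replicate 3 or P7 replicate 3.

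Nsf lay between 195.5 and 337.2 normalized reads in all 10 cortex libraries, with a change from P1 to P14 of 0.15 (SE 0.15, adjusted p = 0.409). With TMM scaling it was called higher in cortex (0.43, limma adjusted p = 0.0232), as it was with DESeq2 (0.39, adjusted p = 0.0247) and edgeR (0.37, adjusted p = 0.0439). In hippocampus it was called higher without P14 replicate 1 (0.70, adjusted p = 0.0127 by limma). Cplx1 fell in cortex, with a log2 change of -0.92 (SE 0.32, adjusted p = 0.0207), which lost its call without P1 replicate 1 (limma adjusted p = 0.0649) and with TMM scaling (0.088), quantile normalization (0.126), edgeR (0.0554) and DESeq2 (0.0519). In hippocampus Cplx1 was called lower with a pseudocount of 8 (-1.33, adjusted p = 0.03) and without P14 replicate 3 (-3.44, adjusted p = 0.0072, both by limma). Its olfactory bulb values were 53.1, 54.6 and 37.5 at P1 and 4.0, 5.5 and 109.7 at P14. The third P14 library there was higher than all P1 libraries, and without it the change was -3.10, adjusted p = 0.00012. Stx1a, the syntaxin of the presynaptic membrane, fell in cortex from 46.3, 43.6 and 37.5 to 9.5, 6.3, 17.0 and 7.3, with a log2 change of -2.07 (SE 0.45, adjusted p = 0.00119), and had too few reads to be tested in hippocampus.

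The calcium sensors and Rab3 effectors comprise Syt1, the sensor of fast release, Doc2b, a higher-affinity calcium sensor, Rab3a, the vesicle GTPase, and Rph3a, which binds it. From P1 to P14, 3 of 4 fell in cortex, 1 of 3 tested in hippocampus and 2 of 3 tested in olfactory bulb, and none rose. Doc2b carried the largest change of the 4: it had 47.7, 23.4 and 25.4 normalized reads at P1, 35.8, 22.4 and 58.9 at P7, then 3.8, 0.6, 2.5 and 0.5 at P14 in cortex, a log2 change of -3.63 (SE 0.51, adjusted p = 2.79e-05) by limma. All P14 libraries were below all others. In olfactory bulb Doc2b held 17 reads over the P1 libraries, 63 over the P7 libraries and 0 over the P14 libraries, which puts P7 at least 8.69-fold higher than P14 against a floor of 3 reads over the group.

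Syt1 had 575.3, 537.7 and 451.3 normalized reads at P1, 544.7, 87.4 and 765.4 at P7, then 73.4, 56.6, 92.4 and 24.4 at P14 in cortex. P7 replicate 2 was already within the P14 range, and the other P7 libraries were within or above the P1 range. The change from P1 to P14 was -3.20 (SE 0.59, adjusted p = 0.000314) by limma. In olfactory bulb Syt1 had 319.8, 269.0 and 298.9 normalized reads at P1, 1239.4, 862.1 and 447.3 at P7, then 69.6, 46.9 and 104.1 at P14, with P7 libraries all above P1 and P14 libraries all below. It rose by 1.40 (adjusted p = 0.0285) to P7 and fell by 3.47 (adjusted p = 2.74e-05) after it. The rise to P7 lost its call without any 1 of the P1 libraries, P7 replicate 1 or P7 replicate 2 (limma adjusted p from 0.0742 to 0.13). The hippocampal fall from P1 to P14, -1.59 (adjusted p = 0.0137), missed the threshold without P1 replicate 2 (limma adjusted p = 0.0543). Rab3a fell in cortex, with a log2 change of -1.52 (adjusted p = 0.00034) and in olfactory bulb, with a log2 change of -1.51 (adjusted p = 0.0139), the latter losing its call without P1 replicate 1 (limma adjusted p = 0.0541). Its hippocampal values at P14 were 3.2, 54.0 and 116.4, on both sides of the P1 range, and without the third of these libraries the change was -2.55, adjusted p = 0.0275. Rph3a was not called in any region, with changes of -0.26, 0.06 and 0.66; in olfactory bulb it was called higher without P14 replicate 2 (1.35, adjusted p = 0.0429).

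The active zone genes encode the scaffolds Rims1, Rims2, Bsn, Pclo and Erc2 and the priming factor Unc13a. In cortex 5 of 6 fell and Rims1 rose, in hippocampus 4 of 6 fell, and in olfactory bulb 5 of 6 fell. Unc13a moved most, in hippocampus, with 125.0, 142.1 and 192.9 normalized reads at P1, 50.1, 72.6 and 146.7 at P7, then 8.6, 4.4 and 28.7 at P14. P14 libraries did not overlap those of the younger ages, and the log2 change from P1 was -3.72 (SE 0.58, adjusted p = 0.000268) by limma. In cortex it went from 403.2, 299.5 and 256.3 to 77.2, 43.4, 44.8 and 46.7 and in olfactory bulb from 197.5, 180.1 and 135.7 to 27.8, 16.5 and 36.1, log2 changes of -2.59 (adjusted p = 2.47e-05) and -2.68 (adjusted p = 1.76e-05). Erc2 had 292.4, 271.3 and 353.3 normalized reads at P1, 141.9, 220.2 and 318.9 at P7, then 20.4, 32.0 and 23.3 at P14 in hippocampus. Its fall there, -3.56 (SE 0.30, adjusted p = 2.06e-06) by limma, had all P14 libraries below both younger ages, which overlapped each other. In cortex Erc2 fell by 2.76 (adjusted p = 7.38e-06). In olfactory bulb it fell by 0.81 (adjusted p = 0.0158), a call lost without P1 replicate 1 (limma adjusted p = 0.0596).

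Rims1, which links vesicles to calcium channels, rose in cortex and fell in olfactory bulb, a difference that was not tested. In cortex it had 189.8, 167.2 and 155.8 normalized reads at P1, 135.6, 72.7 and 152.3 at P7, then 238.0, 398.7, 233.7 and 244.0 at P14, and every P14 library was above every P1 and P7 library. The rise from P7 to P14 was 1.24 (SE 0.24, adjusted p = 0.000856) and that from P1 was 0.67 (SE 0.24, adjusted p = 0.0257) by limma. The change from P1 lost its call without P14 replicate 2 (adjusted p = 0.0799), P1 replicate 2 (0.0629) or P1 replicate 3 (0.0802). In olfactory bulb Rims1 had 128.3, 119.8 and 112.0 normalized reads at P1, 53.5, 99.4 and 109.2 at P7, then 17.9, 12.4 and 9.7 at P14, a log2 change of -3.11 (SE 0.34, adjusted p = 1.87e-05) with no overlap between P14 and the younger ages. In hippocampus its P14 values were 15, 13.2 and 52.0 against 40.6, 43.7 and 55.3 at P1, and among the settings run it was called lower than P1 only without the third P14 library (-1.64, adjusted p = 0.00765). Bsn, the scaffold Bassoon, fell in cortex, hippocampus and olfactory bulb with log2 changes of -1.24, -2.54 and -2.05. Pclo, its relative Piccolo, fell in cortex, with a log2 change of -2.18 (adjusted p = 1.06e-05). The smaller hippocampal fall of Pclo, -0.56 (adjusted p = 0.0312), lost its call without any 1 of 5 libraries (every P1 library, P14 replicate 2 and P14 replicate 3; limma adjusted p from 0.0501 to 0.0907) and with edgeR (adjusted p = 0.0523) or DESeq2 (0.0518). Rims2 fell in olfactory bulb, with a log2 change of -0.88 (adjusted p = 0.00915). Its cortical change of -0.38 (adjusted p = 0.047), with overlapping libraries, lost its call with TMM scaling (limma adjusted p = 0.611), with quantile normalization (0.0753), with no filter (0.0649), with edgeR (0.408) or DESeq2 (0.514) and without P1 replicate 1 or 2, P7 replicate 1, or P14 replicate 3 or 4.

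**Figure D2:**
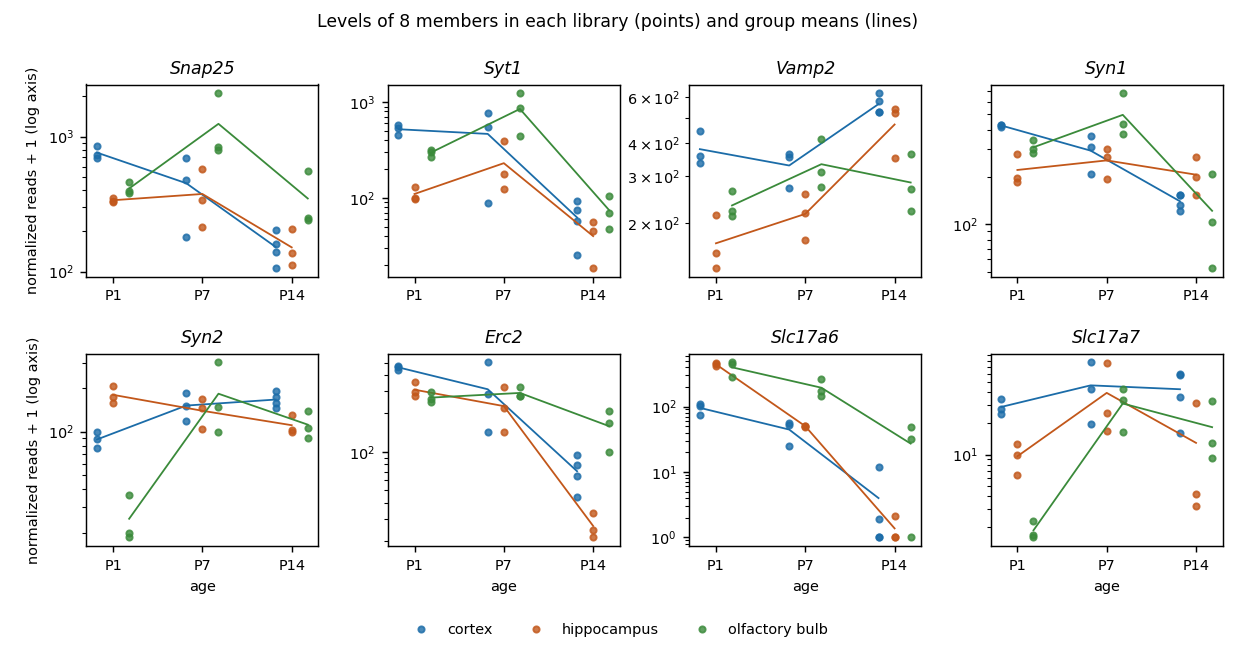
Each panel is 1 gene; points are libraries, lines join group means, colours are regions and the log axis gives normalized reads + 1. Snap25 and Syt1 peak at P7 in olfactory bulb, Vamp2 rises to P14 in cortex and hippocampus, and Slc17a6 drops in all 3 regions.

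The vesicle membrane genes are the synapsins Syn1 and Syn2, the membrane proteins Syp, Syngr1 and Syngr3, and Sv2a and Sv2b, transporter-like proteins of the vesicle. From P1 to P14, 4 of 7 fell and Syn2 rose in cortex, 4 of 7 fell and Sv2b rose in hippocampus, and 6 of 7 fell and Syn2 rose in olfactory bulb. The synapsins, whose upstream sequences are printed above, separated in cortex. Syn1 had 416.8, 425.1 and 429.5 normalized reads at P1, 308.7, 206.4 and 363.9 at P7, then 152.1, 132.1, 151.7 and 120.4 at P14, with the 3 ages not overlapping, and fell by 1.61 (SE 0.16, adjusted p = 1.64e-06) by limma. Syn2 had 76.1, 87.9 and 97.8 normalized reads at P1, 150.6, 116.8 and 184.0 at P7, then 145.3, 172.3, 189.2 and 155.8 at P14, with all P7 and P14 libraries above P1, and rose by 0.92 (SE 0.17, adjusted p = 0.000293). In olfactory bulb Syn1 fell from 341.6, 299.4 and 282.4 to 51.7, 208.1 and 102.7 between P1 and P14, with a log2 change of -1.56 (adjusted p = 0.007). Syn2 there had 35.5, 17.6 and 18.8 normalized reads at P1, 299.9, 147.3 and 98.5 at P7, then 105.3, 89.6 and 137.4 at P14. Every library at P7 and P14 was above every P1 library, and Syn2 rose by 2.79 (adjusted p = 0.00186) to P7 and by 2.21 (adjusted p = 0.000835) to P14. In hippocampus Syn1 was not called, at -0.11 (adjusted p = 0.738), and Syn2 fell by 0.70 (adjusted p = 0.027), a call lost without P1 replicate 1 (limma adjusted p = 0.068), P1 replicate 3 (0.112) or P14 replicate 1 (0.0539).

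Sv2b had the largest change of the group, in olfactory bulb, with 196.1, 299.4 and 258.7 normalized reads at P1, 49.8, 94.4 and 42.1 at P7, then 11.9, 6.9 and 0 at P14. The ages did not overlap, and the log2 change from P1 to P14 was -5.73 (SE 0.77, adjusted p = 8.77e-05) by limma. In hippocampus Sv2b had 31.3, 9.8 and 15.4 normalized reads at P1, 56.2, 91.3 and 116.4 at P7, then 102.1, 23.2 and 60.9 at P14. It rose by 1.58 (SE 0.57, adjusted p = 0.0373) to P14, with 1 P14 library inside the P1 range, and lost its call without P1 replicate 2, P1 replicate 3, P7 replicate 2, P7 replicate 3, P14 replicate 1 or P14 replicate 3 (limma adjusted p from 0.0535 to 0.142). In cortex Sv2b was not called, at -0.43 (adjusted p = 0.304). Sv2a fell in all 3 regions, with a log2 change of -1.92 (adjusted p = 8.65e-06) in cortex, -2.62 (adjusted p = 0.00205) in hippocampus and -2.99 (adjusted p = 5.07e-05) in olfactory bulb, and its P14 libraries lay below all P1 libraries each time.

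Syngr3, a synaptogyrin, fell furthest in hippocampus, where 196 reads over the P1 libraries and 99 over the P7 libraries gave way to 0 reads over the P14 libraries. Against a floor of 3 reads over the group, P1 was at least 23.4-fold higher than P14. Syngr3 also fell in cortex, with a log2 change of -3.19 (adjusted p = 0.000165) and in olfactory bulb, with a log2 change of -1.77 (adjusted p = 0.00249). Its relative Syngr1 was not called in cortex or hippocampus, at 0.30 and -0.54, although hippocampus was called lower without P14 replicate 3 (-1.33, adjusted p = 0.0372) and cortex higher with quantile normalization (0.68, adjusted p = 0.0212). In olfactory bulb Syngr1 fell by 1.496 (adjusted p = 0.023), a call lost without P1 replicate 2 (limma adjusted p = 0.0696) or P1 replicate 3 (0.0934) and with quantile normalization (0.0677). Syp, the vesicle protein synaptophysin, fell in cortex, with a log2 change of -1.55 (adjusted p = 0.000675) and in olfactory bulb, with a log2 change of -1.43 (adjusted p = 0.00352). Its hippocampal change of -1.24 (adjusted p = 0.0272) lost its call without any 1 of the P1 libraries or P14 replicate 2 (limma adjusted p from 0.0583 to 0.0882) and with quantile normalization (0.0722).

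The transmitter-loading genes are Slc17a7 and Slc17a6, which encode the vesicular glutamate transporters VGLUT1 and VGLUT2, and Slc32a1, which encodes the vesicular transporter of GABA and glycine. Among the tested genes, Slc17a6 had the largest fall on the log2(value + 1) scale in cortex and in hippocampus. In hippocampus it had 449.4, 413.4 and 461.4 normalized reads at P1, 50.1, 46.9 and 50.1 at P7, then 1.1, 0 and 0 at P14. The 3 ages did not overlap, and the drop was from 2941 reads over the P1 libraries to 211 over the P7 libraries and 1 over the P14 libraries. The ratio of P1 to P14 was 1055-fold, with a counting interval of 189 to 41670. By limma the changes were -3.14 (SE 0.41, adjusted p = 0.00024) from P1 to P7 and -5.29 (SE 0.41, adjusted p = 1.33e-05) from P7 to P14. In cortex Slc17a6 had 110.0, 101.2 and 72.1 normalized reads at P1, 51.4, 24.0 and 54.8 at P7, then 11, 0, 0.9 and 0 at P14, a log2 change of -5.42 (adjusted p = 1.52e-05) from P1 to P14. In olfactory bulb it had 277.1, 442.5 and 471.0 normalized reads at P1, 142.6, 264.5 and 171.5 at P7, then 47.7, 0 and 30.5 at P14, a log2 change of -5.07 (adjusted p = 0.00251), with P14 below both younger ages in all libraries.

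Slc17a7 took another course. In olfactory bulb it had 0.7, 1.3 and 0.6 normalized reads at P1, 41.8, 32.9 and 15.4 at P7, then 11.9, 8.3 and 31.9 at P14. All P7 and P14 libraries were far above the near-absent P1 level, and it rose by 3.97 (SE 0.62, adjusted p = 0.00255) to P7 and by 3.11 (SE 0.62, adjusted p = 0.00139) to P14 by limma, from 6 reads over the P1 libraries. In cortex it had 33.5, 26.2 and 23.6 normalized reads at P1, 41.5, 18.6 and 76.1 at P7, then 57.1, 59.1, 35.0 and 15.1 at P14, with P7 and P14 libraries on both sides of the P1 range and a change to P14 of 0.40 (adjusted p = 0.481). In hippocampus its P14 values of 3.2, 2.2 and 30.5 spanned the P1 values of 8.9, 5.3 and 11.7, and it was not called (adjusted p = 0.797). With all libraries in the fit, Slc32a1 was abundant enough to be tested in olfactory bulb only, a region rich in GABA-releasing neurons. There it had 81.7, 57.7 and 59.6 normalized reads at P1, 85.4, 39.3 and 65.3 at P7, then 2.0, 4.1 and 4.2 at P14. P1 and P7 libraries overlapped, all P14 libraries were lower, and the log2 change from P7 was -3.84 (SE 0.41, adjusted p = 3.39e-05) by limma. In cortex it had 35.2, 13.3 and 14.6 at P1 and 0.4, 0, 1.3 and 0 at P14, and without the filter its log2 change was -3.92, adjusted p = 4.94e-05 by limma. In hippocampus it held 34 reads over the P1 libraries and 0 over the P14 libraries, at least 4.06-fold lower against a floor of 3 reads over the group.

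The retrieval genes are Dnm1, the dynamin that pinches vesicles off, Amph, Sh3gl2 (endophilin A1) and Synj1 (synaptojanin), which help to shape and uncoat them. All 4 fell in cortex from P1 to P14, none of 4 was called in hippocampus, and only Synj1 fell in olfactory bulb, with all libraries and the deposited scaling. Dnm1 changed most, with 172.2, 138.3 and 113.9 normalized reads at P1, 122.3, 35.6 and 167.7 at P7, then 43.1, 35.8, 28.7 and 16.1 at P14 in cortex. P14 libraries lay below all P1 libraries, P7 replicate 2 lay among them, and the log2 change from P1 was -2.22 (SE 0.44, adjusted p = 0.000582) by limma. In olfactory bulb Dnm1 had 50.2, 43.6 and 51.3 normalized reads at P1, 291.3, 179.4 and 116.3 at P7, then 19.9, 4.1 and 47.2 at P14. It was highest in the P7 libraries and fell from them to P14, with a log2 change of -3.41 (adjusted p = 0.00155), while its change from P1 to P14, -1.51 (adjusted p = 0.0702), was called, among the settings run, only without the third P14 library (-2.25, adjusted p = 0.00703). In hippocampus it was likewise higher at P7 in every library (42.3, 70.1 and 122.1) than at P1 (22.4, 25.8 and 36.2) and fell from P7, with a log2 change of -2.54 (adjusted p = 0.00205). Its change from P1 to P14 there, -1.200 (adjusted p = 0.051), was called without P14 replicate 2 (limma adjusted p = 0.0499), without P14 replicate 3 (0.0374) and with DESeq2 (adjusted p = 0.0495). Synj1 fell by 1.03 (adjusted p = 4.72e-06) in cortex and fell in olfactory bulb with a log2 change of -0.78 (adjusted p = 0.0123). In hippocampus it was called lower without P14 replicate 2 (-0.54, adjusted p = 0.0476 by limma). Amph and Sh3gl2 fell in cortex, with a log2 change of -1.69 (adjusted p = 0.00012) and -1.70 (adjusted p = 2.2e-05) by limma.

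Mean levels peaked at different ages in the 3 regions, a difference that was not tested. They were highest at P1 for 21 of the 30 genes in cortex, at P7 for 16 in hippocampus and at P7 for 24 in olfactory bulb, and lowest at P14 for 22, 22 and 23. Another 13 were highest at P1 in hippocampus, where P7 replicate 3 was the highest P7 library for 22 of 30 genes. These counts include genes under the filter, and the shares over all genes were not counted. From P1 to P7, limma called 7 of 29 genes lower and 1 higher in cortex (18.1% and 15.6% of all tested genes), 2 of 27 lower and 2 higher in hippocampus (6.92% and 11.2%), and 1 of 29 lower and 5 higher in olfactory bulb (2.98% and 7.59%). The 5 that rose in olfactory bulb were Snap25, Nsf, Syt1, Syn2 and Slc17a7. From P7 to P14, 16 fell and 2 rose in cortex (31.3% and 18.6%), 11 fell and 1 rose in hippocampus (17.7% and 12.5%), and 21 fell and none rose in olfactory bulb (26.6% and 20.4%), where the median change of the tested genes was -1.80 against -0.20 for all genes.

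The change after P7 was also tested against the change before it, as a contrast that uses all 3 ages. It was more negative for 17 of 29 genes and more positive for none in olfactory bulb, against 9.86% and 6.22% of all tested genes. It was more negative for 5 of 27 and more positive for none in hippocampus (4.47% and 1.52%), and for 3 of 29 each way in cortex (13.2% and 9.78%). In cortex Doc2b, Sh3gl2 and Sv2b were more negative after P7, and Vamp2, Rims1 and Cplx2 more positive. These counts moved with single libraries. Olfactory bulb P7 replicate 1 was the highest of its group for 23 of 30 genes, and without it the count of 17 was 5; without P7 replicate 2 it was 9 and without P1 replicate 2 it was 11. Cortex P7 replicate 2 was the lowest for 29 of 30 genes, with a summed level of 3772 normalized reads against 6355 and 8856. Without it the cortex counts were 2 more positive and 12 more negative, and 3 higher and 2 lower from P1 to P7 (5 calls in place of 8); without P7 replicate 3 they were 3 and 0, and 1 higher and 15 lower, and without P1 replicate 1 the P1 to P7 count was 4. In hippocampus the contrast called 0 genes without P7 replicate 2 or 3, 2 without P1 replicate 1, 3 without P1 replicate 3 and 9 without P14 replicate 1. The P1 to P7 count there was 1 without P1 replicate 2, 2 without P1 replicate 3 or P7 replicate 2 or 3, and 7 without P14 replicate 1. In olfactory bulb the 6 genes called from P1 to P7 were 10 without P14 replicate 2, and only Syn2 and Slc17a7 stayed called without any 1 of the P1 libraries, P7 replicate 1 or P7 replicate 2.

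**Figure D3:**
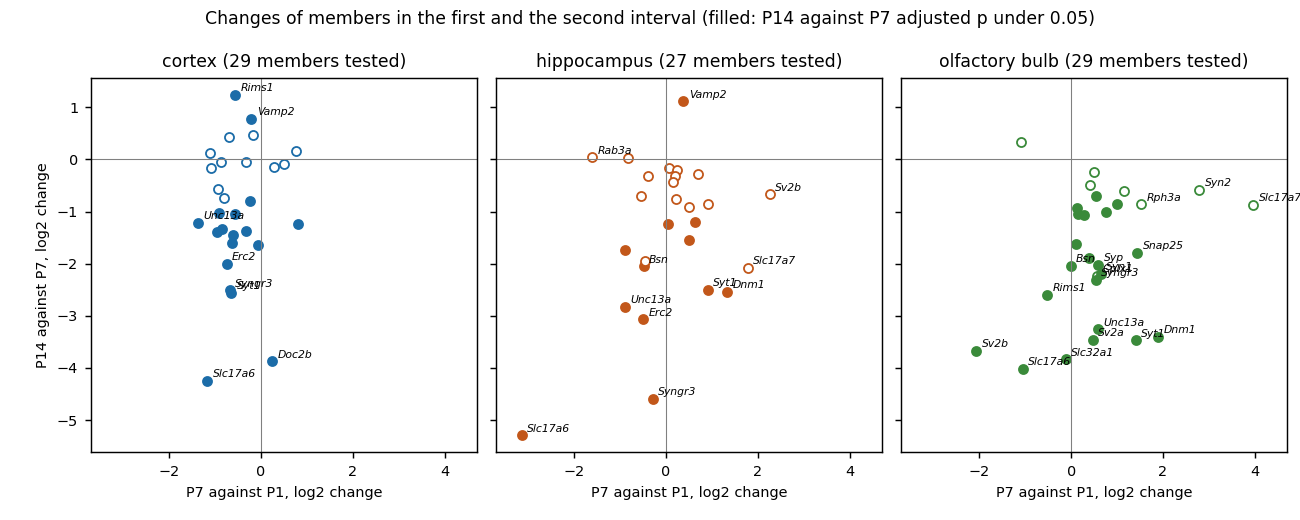
Each point is 1 tested gene, with its log2 change from P1 to P7 on the horizontal axis and from P7 to P14 on the vertical axis; both axes share the P7 libraries, and filled points have an adjusted p under 0.05 from P7 to P14. Most points lie below 0 on the vertical axis in each region, and in olfactory bulb 23 of 29 lie above 0 on the horizontal axis.

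A further 49 genes of vesicle release, listed for comparison, moved in the same overall direction. From P1 to P14, 27 of 40 tested fell and 4 rose in cortex, against 40.3% lower and 24.0% higher over all tested genes. In hippocampus 19 of 37 fell and 5 rose (28.5% and 21.0%), and in olfactory bulb 18 of 35 fell and 6 rose (31.4% and 24.8%). Their median log2 changes were -1.39, -0.92 and -0.57 in that order, against -0.27, -0.29 and -0.24 over all tested genes. The largest falls in cortex were Sv2c, Syt5 and Syn3, at -4.77 (adjusted p = 8.48e-06), -4.44 (adjusted p = 5.79e-06) and -4.35 (adjusted p = 1.07e-07) by limma. Those in hippocampus were Ppfia2, Svop and Syn3, from -4.85 (adjusted p = 1.37e-05) to -4.53 (adjusted p = 0.00128), and those in olfactory bulb were Syt5, Svop and Sh3gl3, from -5.69 (adjusted p = 1.06e-06) to -4.18 (adjusted p = 0.00023), with Svop in hippocampus and Syt5 in olfactory bulb at 0 reads over the P14 libraries. Unc13c, a relative of the priming factor Unc13a, was among the 3 largest rises in every region. Its mean went from 103 ± 16.2 (SD, n = 3) to 1166 ± 150 normalized reads (SD, n = 4) in cortex, from 9.56 ± 2.89 to 258 ± 28.1 (n = 3 each) in hippocampus and from 23.5 ± 10.5 to 112 ± 29.8 (n = 3 each) in olfactory bulb, changes of 3.49 (adjusted p = 3.17e-10), 4.65 (adjusted p = 1.09e-06) and 2.28 (adjusted p = 0.000345) by limma. The other largest rises were Syngr2 and Snapin in cortex, at 1.62 (adjusted p = 0.00041) and 0.82 (adjusted p = 9.15e-05), Snapin and Scamp1 in hippocampus, at 1.39 (adjusted p = 0.000279) and 1.21 (adjusted p = 1.02e-05), and Rab27b and Cadps2 in olfactory bulb, at 2.75 (adjusted p = 0.000569) and 1.55 (adjusted p = 0.000199).

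Markers of other cell types moved with age beside the 30 genes. The 7 early neuron markers (Dcx, Stmn2, Gap43, Tubb3, Elavl3, Elavl4 and Ina) all fell from P1 to P14 in each region. Their summed level lay between 7413 and 10626 normalized reads at P1 and between 312 and 396 at P14 in cortex, between 6394 and 8737 and then between 271 and 815 in hippocampus, and between 14423 and 17854 and then between 1779 and 3133 in olfactory bulb. Of the mature neuron markers (Rbfox3, Map2, Nefl, Nefm, Nefh, Thy1 and Celf4), 6 were tested in each region, of which 4, 3 and 4 fell and 1 rose. Their sum reached 4778 at P1 and 2165 at P14 in cortex, hippocampal sums 3304 and 2359 and olfactory bulb sums 6230 and 3037, and all P14 libraries were below all P1 libraries. All tested excitatory neuron markers fell (4, 5 and 5), as did 5 of 5, 4 of 5 and 5 of 5 inhibitory neuron markers. Dlx1 and Dlx5 were at 0 in every hippocampal P14 library and Neurod6 in every olfactory bulb P14 library. Of the 10 astrocyte markers 9, 10 and 10 rose, and none was at 0 in a whole group. Their sum lay between 21090 and 27860 at P1 and between 495922 and 554224 at P14 in cortex, between 13574 and 15609 and then between 426364 and 460487 in hippocampus, and between 5048 and 7168 and then between 124173 and 141103 in olfactory bulb. Among 6 genes each, markers of mature oligodendrocytes rose in 5, 4 and 4 cases, of oligodendrocyte precursors in 2, 2 and 4, of microglia in 6, 3 and 3 and of endothelial cells in 0, 0 and 6. Mobp at P1, Mog at P14 and Cldn5 at P14 in hippocampus, and Mag at P1 and P14 and Mobp at P7 in olfactory bulb, were at 0 in the whole group. The sum over the 30 genes lay between 8392 and 9877 at P1 and between 3663 and 4280 at P14 in cortex, between 4644 and 5414 and then between 3246 and 3283 in hippocampus, and between 6135 and 6664 and then between 3060 and 4343 in olfactory bulb. In cortex P7 replicate 2 the early neuron markers summed to 1680 against 2998 and 3448 in the other P7 libraries, and microglia markers to 1178 against 334 and 419. The part of other cell types in the changes of the 30 genes was not tested.

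**Figure D4:**
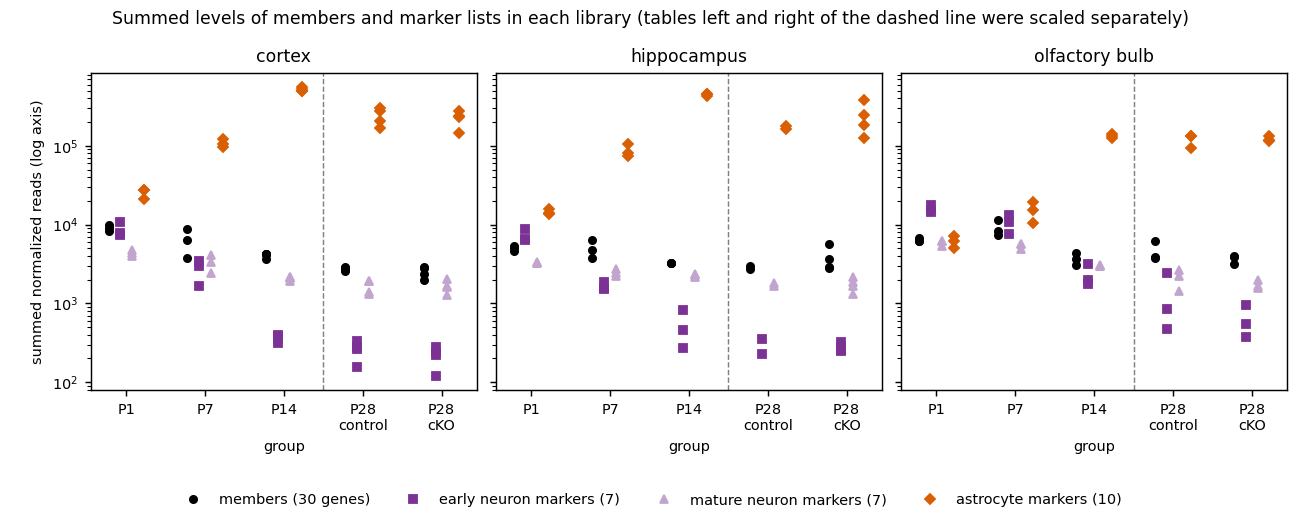
Summed normalized reads on a log axis for the 30 genes and for 3 marker lists, 1 point per library; values left and right of the dashed line come from tables that were scaled separately. The early neuron markers fall and the astrocyte markers rise with age. From P1 to P14 the sum over the 30 genes falls less than the early neuron markers. The mature neuron markers also fall less than the early ones, by a fold near that of the 30 genes.

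Rest, whose product binds the RE1 element, and the corepressor genes Rcor1 and Rcor2 were read for the same libraries. Only the left part of that element was searched for above, and Syn1 carries it. Rest had 46.6, 63.2 and 96.2 normalized reads at P1, 91.7, 117.5 and 107.4 at P7 and 75.3, 76.1, 87.7 and 96.0 at P14 in cortex. It rose from P1 to P7 (0.67, limma adjusted p = 0.0409). Its change from P1 to P14 was not called there (0.34, limma adjusted p = 0.189), in hippocampus (-0.40, adjusted p = 0.196) or in olfactory bulb (0.71, adjusted p = 0.112). In hippocampus Rest fell from P7 to P14 (-0.78, limma adjusted p = 0.034). From P1 to P14 Rcor2 fell in all 3 regions, with log2 changes of -2.39, -3.78 and -3.702, with limma adjusted p of 5.50e-05, 0.000414 and 2.22e-05. Rcor1 fell over the same ages in cortex (-1.08, limma adjusted p = 0.0135) and olfactory bulb (-1.83, adjusted p = 0.0125). It was not called in hippocampus (-0.997, adjusted p = 0.101).

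At P28, none of the 30 genes was called different between Gabbr1 control and cKO in any region. For cortex, hippocampus and olfactory bulb in that order, 25, 25 and 26 of them were tested, and limma called 0.00982%, 0% and 0% of all genes. At an unadjusted limma p under 0.05 there were 1, 0 and 2 of these tested genes. Over all tested genes there were 221 of 10188, 296 of 11639 and 349 of 11539. EdgeR and DESeq2 also called 0 of the 30 genes in every region. The median log2 difference of the tested genes, cKO minus control, was -0.19, 0.20 and -0.20 in the same order, against a median over all genes of 0.00, -0.04 and 0.02. A missed threshold does not show that the genotypes were alike: SEs of single genes reached 1.09 in cortex (Sv2a), 1.44 in hippocampus (Syp) and 1.23 in olfactory bulb (Rph3a).

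The cortex libraries carry labels of 2 styles, one without a treatment (control replicates 1 and 2, cKO replicates 1, 2 and 3) and one with tamoxifen (control replicates 3 and 4, cKO replicate 4). The tamoxifen-labelled libraries are also the cortex part of the block of highest library numbers, so label and block cannot be told apart. In the first set 18 of 25 tested genes were lower in cKO and the median difference was -0.24, and in the tamoxifen-labelled set 12 of 25 were lower and the median was 0.01, differences within a set that were not tested. A limma fit of all 8 libraries with the label style as a covariate called 0 of the 25 genes, and their median difference was -0.19. Over all genes that fit called 1, as without the covariate, and had 647 at an unadjusted p under 0.05 in place of 221. Unc13a had a difference of -1.03 and -0.58 in the respective sets, from 26.4, 39.7, 38.4 and 42.9 normalized reads in control libraries and 6.7, 17.8, 28.8 and 26.9 in cKO libraries. Its libraries of the 2 genotypes overlapped only between 26.4 and 28.8 normalized reads, and the difference over all libraries was -0.999 (SE 0.50, adjusted p = 1) by limma. Sv2b had 49.7, 29.2, 25.2 and 43.6 normalized reads in control libraries and 16.8, 9.4, 8.8 and 38.4 in cKO libraries, at -1.16 (SE 0.53, adjusted p = 1), with a cKO minus control difference of -1.68 in the first set and 0.20 in the tamoxifen-labelled one.

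Genotype groups of the 30 genes were free of overlap for 0 of the 25 genes tested in cortex, for 2 of 25 hippocampal and for 3 of 26 olfactory bulb genes. Over all genes 1.03% lay lower and 0.864% higher without overlap in cortex. Hippocampus had 7.92% and 7.08%, and olfactory bulb 4.71% and 5.30%. The counts of the 30 genes did not stand out from these shares. In hippocampus the 2 genes were Nsf, with 414.5 and 410.1 normalized reads in control libraries and 394.1, 377.0, 406.4 and 352.7 in cKO libraries, and Amph, with 15.6 and 28.5 normalized reads in control libraries and 41.6, 183.4, 32.7 and 33.1 in cKO libraries. Nsf differed by -0.11 (SE 0.25, adjusted p = 0.954) and Amph by 1.31 (SE 0.76, adjusted p = 0.936) by limma, the latter with 1 cKO library, replicate 2, far above the others. In olfactory bulb they were Nsf, Rims1 and Rims2. Nsf had 279.0, 187.2 and 255.5 normalized reads in control libraries and 304.3, 285.7 and 293.4 in cKO libraries, a difference of 0.31 (SE 0.25, adjusted p = 0.877) in the direction opposite to hippocampus. Rims1 had 18.4, 18.7 and 14.2 normalized reads in control libraries and 0.9, 5.0 and 8.0 in cKO libraries, lower in every cKO library, at -1.95 (SE 0.95, adjusted p = 0.877). Rims2 had 273.3, 400.0 and 218.6 normalized reads in control libraries and 131.5, 207.0 and 177.5 in cKO libraries, also lower in every cKO library, at -0.77 (SE 0.31, adjusted p = 0.877) by limma. All 6 active zone genes had a negative difference in olfactory bulb, from -1.95 for Rims1 to -0.13 for Unc13a, none of them called. This role was not chosen beforehand, and 15 of the 26 members tested there were lower in cKO. The share over all genes was not counted. Rims1 rests on 16, 11 and 15 reads in control libraries and 1, 5 and 11 in cKO libraries.

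The 2 libraries with few Rn45s reads held high values of several of these genes and low values of others. Within its group, hippocampus cKO replicate 2 was highest for 9 and lowest for 12 of 29 genes compared. Olfactory bulb control replicate 2 was highest for 15 and lowest for 10 of 30. Hippocampus cKO replicate 2 had 1076.1 normalized reads of Snap25 against 117.2, 154.9 and 415.1 in the other cKO libraries, and its sum over the 30 genes was 5594 against 2771 to 3676. Olfactory bulb control replicate 2 had 1440.0 of Snap25 against 344.4 and 613.1, and a sum of 6153 against 3787 and 3921. Without the hippocampal library 6 of 25 genes were lower in cKO and the median difference was 0.25, in place of 8 and 0.20; without the olfactory bulb library 14 of 26 were lower and the median was -0.10, in place of 15 and -0.20. The count of called genes was 0 without either. Summed early neuron markers at P28 reached at most 331 in control and 278 in cKO cortex, while the hippocampal maxima were 352 and 319 and the cKO maximum in olfactory bulb was 965. Of the olfactory bulb controls, replicate 2, the library with few Rn45s reads, had a sum of 2407, and the others had 851 and 479.

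**Figure D5:**
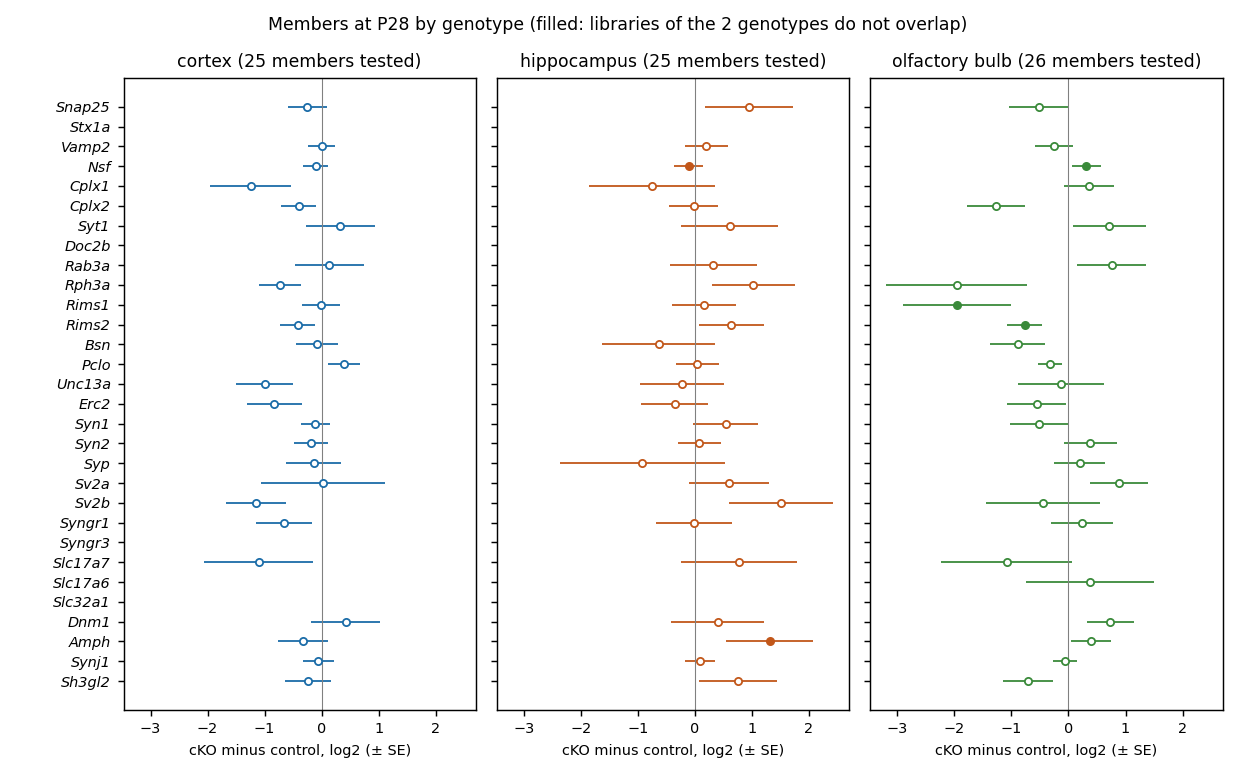
Points are log2 differences, cKO minus control, of each tested gene at P28 with bars of 1 SE from limma; genes under the filter have no point, and filled points mark genes whose libraries do not overlap between genotypes. No gene was called, and the 5 filled points are Nsf and Amph in hippocampus and Nsf, Rims1 and Rims2 in olfactory bulb.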

How the data were processed

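Per the labels' protocols, a low-input kit (Trio RNA-seq) turned under a few nanograms of total RNA into each of the 48 libraries. The authors deposited 6 tables of normalized signal per gene; STAR 2.5.0a, DESeq2 1.20.0, FastQC, MultiQC and build mm10 are named in the submitters' processing notes, and the counting program, annotation and strand setting are not given in the sources used here. Every deposited value was a whole multiple of its library's smallest step (within 0.01), which gave read counts, so the signal is taken as reads divided by a size factor. In olfactory bulb P28 cKO replicate 2 that step is near 1, where the check is weaker.

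Genes with a table mean of at least 10 were tested with limma 3.58.1 (R 4.3.3, trend) on log2(value + 1), per region, over the 3 ages or the P28 genotypes; fold changes are on that scale and understate low genes. P-values were adjusted over all tested genes by the Benjamini-Hochberg method. Intervals on ratios and floors of 3 reads cover counting error only. The steps were tested on simulated data. The members and gene lists were chosen with earlier results of these data known. All 30 members are described; per-library values were given by rule for the largest called change from P1 to P14 in each role and for P28 genes without overlap, and the other per-library values (such as Vamp2, Syn2, Syt1, Rims1, and Unc13a and Sv2b at P28) were chosen after they were seen. Of the 49 other release genes, the 3 largest called rises and falls per region are named. Other settings tried were a pseudocount of 0.1 or 8, tests without the filter or with a minimum of 100, TMM scaling, quantile normalization, edgeR 4.0.16 and DESeq2 1.42.0 on the recovered reads, the label style as a covariate (cortex P28), and each library left out.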

Additional observations from a re-analysis of the deposited data

Results flagged for a closer look

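Genes, and the sum over the 30 genes, were searched within groups of 4 libraries for a library far from the others. Chance gives about 1 in 20 for a single set of 4 values. The sets share the same libraries and are not independent, so their count cannot be weighed against that rate. Of 108 such sets, 9 held a library far from the other 3. In cortex P14 these were Rims1 in replicate 2 (398.7 normalized reads against 233.7 to 244.0), Unc13a in replicate 1 (77.2 against 43.4 to 46.7), Slc17a6 in replicate 1 (11 against 0.0 to 0.9) and the sum over the 30 genes in replicate 4 (3663.3 against 4200 to 4280). At P28 they were Bsn in cortex control replicate 2 (32.7 against 69.1 to 71.9), Syt1 in cortex cKO replicate 4 (108.4 against 21.6 to 28.3), Slc17a7 in hippocampus cKO replicate 4 (54.7 against 7.2 to 11.6), and Rims2 and Amph in hippocampus cKO replicate 2 (875.3 against 179.1 to 261.1, and 183.4 against 32.7 to 41.6). Cortex and hippocampus cKO replicate 4 both belong to the P28 block of highest library numbers. Cortical Syt1 was also higher in the controls of that block (38.4 and 74.7) than in the other controls (25.4 and 9.3). Hippocampus cKO replicate 4 also had the highest Syt1 (197.9) and Sv2b (76.2) of the hippocampal P28 libraries. Whether the block accounts for these values was not tested.

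Some genes had all libraries of one region move one way and all libraries of another the opposite way. From P1 to P14, Rims1 moved by 0.67 in cortex and -3.11 in olfactory bulb (log2), and Syn2 by 0.92 in cortex, by 2.21 in olfactory bulb and by -0.70 in hippocampus. At P28, Nsf differed between cKO and control by -0.11 in hippocampus and 0.31 in olfactory bulb. Neither difference was called. Over all tested genes, 7.92% lay lower in cKO without overlap in hippocampus and 5.30% lay higher in olfactory bulb. These differences between regions were not tested, because the tables were scaled separately.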

How the results depend on the processing

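No called single-gene change reversed its direction under any alternative run: of the 954 recomputed values of called changes from P1 to P14, 909 kept their call and 45 lost it, 32 of these when 1 library was left out and 13 under another setting. The losses fell on 11 of the 56 called changes. Of 253 recomputed counts, 222 stayed within 1.5 times. A minimum mean of 100 tested fewer genes and called 10 genes in cortex from P7 to P14 and 14 from P1 to P14, and 7, 9 and 3 in hippocampus from P7 to P14, from P1 to P14 and for the change after P7 against that before it. In olfactory bulb from P1 to P7, quantile normalization called 10 and DESeq2 11; the cause was not tested. Leaving out 1 library gave 4 to 16 called genes in cortex from P1 to P7, 3 to 14 for the cortex contrast of the 2 intervals, 1 to 7 in hippocampus from P1 to P7, 0 to 9 for its contrast of intervals, and 2 to 10 and 5 to 22 for the same in olfactory bulb. From P1 to P14 the cortex count was 22 to 25, the hippocampus count 10 to 18 and the olfactory bulb count 16 to 21, and at P28 the count was 0 each time. Depth limits low genes most in the P14 libraries of hippocampus and olfactory bulb. No paired analysis was possible because the labels carry no replicate numbers shared between groups.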
